A study of Danio rerio with 8 samples.

Results

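The complement and clotting factors described here are 10 zebrafish genes: c4b, c6.2, c9 and cfb of the complement system, and f2, fga, fgb, fgg, f13a1b and plg of clotting and clot removal. Their probe sets were selected by gene symbol in the platform annotation. A total of 13 probe sets carried 8 of these symbols, out of 15502 probe sets tested and 8793 named genes. No probe set was named f2 or cfb in the annotation used here, so thrombin and factor B were not analysed. The genes c4b, c6.2, fga, fgb and fgg had 1 probe set each, plg had 2, and c9 and f13a1b had 3 each.

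An Affymetrix zebrafish array was used to profile heart ventricles of Danio rerio, in 4 samples from animals with a resected ventricle and 4 samples from control animals. Per the labels, every sample was a pool of 50 ventricles, all were taken 2 weeks after surgery, and the replicates are biological. The operation given to control animals, and the strain, sex and age of the fish, are not given in the sources used here. Array medians lay between 5.78 and 5.82 on the log2 scale of the deposited values.

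Complement is a cascade of plasma proteins that tags microbes and cell debris, calls in immune cells and can build a pore in a target membrane. The classical and lectin routes pass through C4, the alternative route through factor B, and the terminal components C6 to C9 form the pore. In clotting, thrombin cuts fibrinogen, which is assembled from the alpha, beta and gamma chains encoded by fga, fgb and fgg. Factor XIII then crosslinks the fibrin strands, and plasmin, made from the plasminogen encoded by plg, dissolves them. In vertebrates the liver is the main source of fibrinogen, plasminogen and many complement proteins, while C1q and the A subunit of factor XIII are known products of macrophages and related blood cells.

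Resected ventricles had more transcript of c4b, c6.2 and f13a1b than control ventricles, by 1.88-fold to 2.77-fold. The fibrinogen chains, plasminogen and the pore component c9 did not pass the test. Counting each gene by its brightest probe set, 3 of the 8 measured genes rose and 0 fell, at a Benjamini-Hochberg adjusted p under 0.05 over all probe sets in limma. By the same rule 5.05% of all 8793 genes rose and 8.05% changed in either direction. At an unadjusted p under 0.05 the members' counts were again 3 higher and 0 lower, beside 12.7% of all genes higher and 12.7% lower. The median change of the 8 genes was -0.08 on the log2 scale, beside -0.04 over all genes. Of the 13 probe sets, 4 rose, beside 4.28% of all probe sets.

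**Figure D1:**
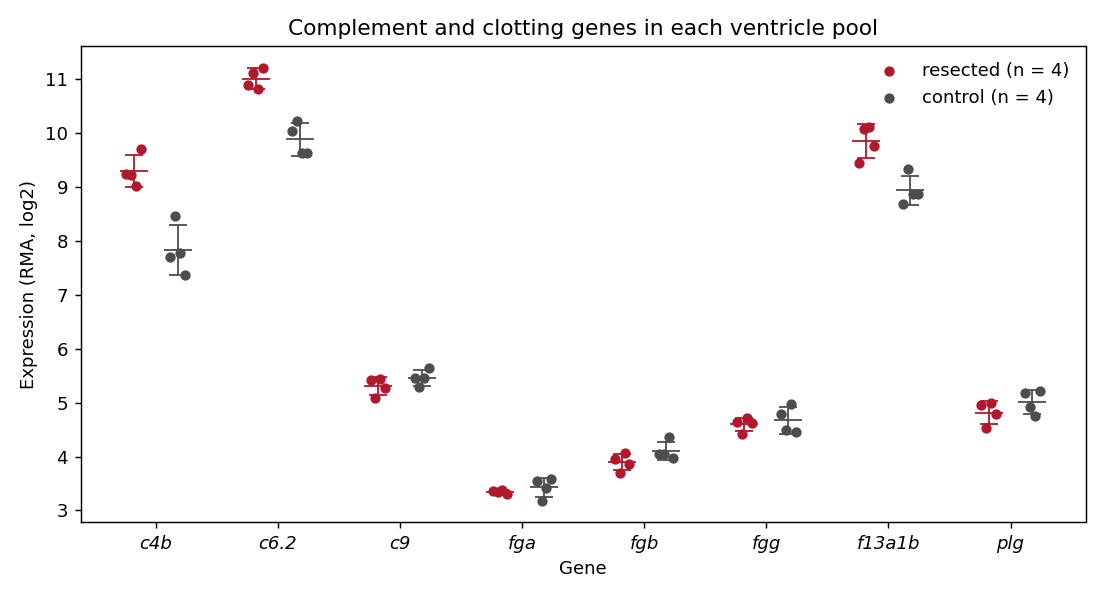
Expression of the 8 measured genes in every array on the RMA log2 scale, resected pools in red to the left of control pools in grey; each gene is shown by its brightest probe set. Horizontal marks are group means and bars are SD (n = 4 per group). The groups stand apart for c4b, c6.2 and f13a1b and overlap for the other genes.

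The classical and lectin routes of complement were represented by c4b, a C4 protein that becomes part of the enzyme that cuts C3. On the log2 scale c4b was at 9.23, 9.22, 9.02 and 9.70 in resected replicates 1 to 4, against 7.70, 8.46, 7.77 and 7.37 in control replicates 1 to 4. Every resected pool lay above every control pool, as in 7.74% of all genes, and control replicate 2 was the highest of the controls. The means were 9.29 ± 0.29 in resected and 7.83 ± 0.46 in control ventricles (SD, n = 4 each). The change was 1.47 ± 0.22 (SE of the limma fit), or 2.77-fold with a 95% interval of 1.98-fold to 3.87-fold (adjusted p = 0.00322, limma). Among named genes, 47 had a larger increase. Without moderation of the variance the c4b call ended (adjusted p = 0.0609).

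Of the terminal components, c6.2 rose and c9 did not pass. The gene c6.2 encodes a C6 protein, which joins the growing pore complex before C9 does. It was at 10.88, 11.12, 10.82 and 11.21 in resected replicates 1 to 4, and at 10.04, 10.23, 9.63 and 9.63 in control replicates 1 to 4 (log2). The groups did not overlap, and the lowest resected pool was 0.59 above the highest control pool, which was again replicate 2. The change of c6.2 was 1.13 ± 0.15, from means of 11.01 ± 0.19 in resected and 9.88 ± 0.30 in control ventricles (SD, n = 4 each). This is 2.19-fold, with a 95% interval of 1.73-fold to 2.76-fold (adjusted p = 0.00189, limma).

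The protein encoded by c9 forms the wall of the pore by joining many copies of itself. Its brightest probe set was at 5.41, 5.09, 5.44 and 5.27 in resected pools, against 5.45, 5.29, 5.45 and 5.63 in control pools. These groups overlapped, and the change was -0.15 ± 0.11 (adjusted p = 0.425, limma). Its 95% interval covered 0.765-fold to 1.06-fold. The other c9 probe sets gave -0.13 and -0.14 and were dimmer, with resected means of 4.274 and 3.153 and control means of 4.402 and 3.289.

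The difference between c6.2 and c9 was tested within each array. The value of c6.2 minus that of c9 was 5.70 ± 0.33 in resected and 4.42 ± 0.43 in control arrays (SD, n = 4 each), and all 4 resected values exceeded all control values. The difference of 1.28 had an exact two-sided permutation p = 0.0286, the smallest that 70 assignments of 8 arrays allow, and the same value after adjustment over the 2 such differences computed. The pair was chosen with earlier results of these data known, and c6.2 alone already set the groups apart. This p therefore adds little to the c6.2 call. The level of c9 was below the array medians and has no detection call, so the difference bears on these probe sets' values only. It is not read as a difference between the transcripts. The other difference computed, of f13a1b and the mean of the fibrinogen chains, is not read here, since the fibrinogen probe sets were not shown to be above background. The planned difference of c4b and cfb could not be computed, for want of a cfb probe set.

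The fibrinogen chains had low values in both groups, and none passed the test. The alpha chain gene fga was at 3.37, 3.34, 3.38 and 3.31 in resected pools, against 3.55, 3.18, 3.42 and 3.58 in control pools (log2). The beta chain gene fgb was at 3.95, 3.70, 4.06 and 3.87 in resected pools, against 4.05, 4.05, 4.36 and 3.96 in control pools. The gamma chain gene fgg was at 4.64, 4.43, 4.71 and 4.62 in resected pools, against 4.79, 4.48, 4.97 and 4.45 in control pools. All 3 chains overlapped between the groups. The changes were -0.08 ± 0.10 for fga, -0.21 ± 0.11 for fgb and -0.07 ± 0.13 for fgg (adjusted p = 0.651, 0.277 and 0.761, limma). The 95% intervals reached at most 1.096-fold for fga, 1.02-fold for fgb and 1.15-fold for fgg. These values lie below the array medians, RMA values carry no detection call, and a change in a transcript under the array's background would not be seen.

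The gene f13a1b encodes the A subunit of factor XIII, the transglutaminase that ties fibrin strands to each other and to fibronectin. Its brightest probe set was at 9.44, 10.07, 10.11 and 9.75 in resected replicates 1 to 4, against 8.69, 9.32, 8.86 and 8.86 in control replicates 1 to 4 (log2). The groups did not overlap, though the lowest resected pool, replicate 1, was only 0.11 above the highest control pool, replicate 2. The means were 9.84 ± 0.32 in resected and 8.93 ± 0.27 in control ventricles (SD, n = 4 each), a change of 0.91 ± 0.17, or 1.88-fold with a 95% interval of 1.44-fold to 2.45-fold (adjusted p = 0.0118, limma). This call, too, ended without moderation of the variance (adjusted p = 0.0934).

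The other f13a1b probe sets differed among themselves. That with the suffix _s_at, which marks probes that can match several transcripts, rose by 1.08 ± 0.22 (adjusted p = 0.0170, limma). Its resected values were 7.82, 8.51, 8.37 and 8.32 and its control values 6.80, 7.84, 7.15 and 6.93, so resected replicate 1 and control replicate 2 overlapped by 0.01. Its call ended without resected replicate 2 or 3 or control replicate 4 (adjusted p = 0.0622, 0.0530 and 0.0594, limma). It ended without moderation of the variance too (adjusted p = 0.113). The remaining probe set was dim, at 2.75 ± 0.13 in resected and 2.82 ± 0.10 in control arrays (SD, n = 4 each), and changed by -0.06 ± 0.09 (adjusted p = 0.710, limma). Which part of the transcript each probe set reads was not analysed here.

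Plasminogen, the precursor of plasmin, did not pass the test. The brighter plg probe set was at 4.95, 4.53, 4.99 and 4.78 in resected pools, against 5.17, 4.91, 4.75 and 5.21 in control pools, with overlapping groups. Its change was -0.20 ± 0.13, with a 95% interval of 0.709-fold to 1.07-fold (adjusted p = 0.395, limma). The dimmer plg probe set was at 3.10 ± 0.15 in resected and 3.09 ± 0.09 in control arrays (SD, n = 4 each), a change of 0.01 ± 0.10 (adjusted p = 0.941). Both plg probe sets lay below the array medians, so the limit given for the fibrinogen chains holds here too.

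**Figure D2:**
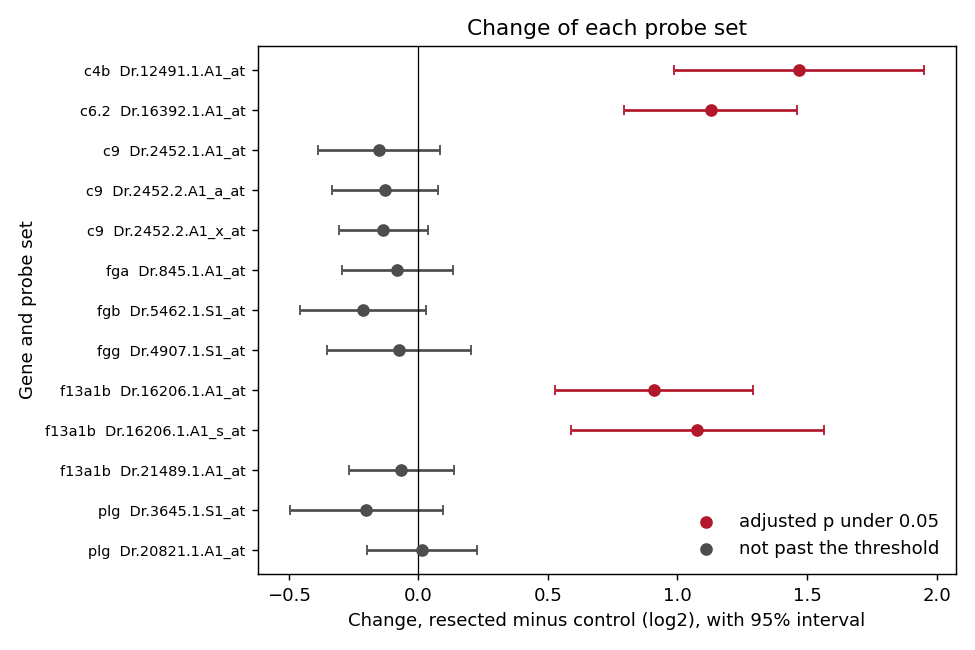
Change of each of the 13 probe sets, resected minus control in log2 units, with 95% intervals of the limma fit (n = 4 arrays per group); red marks an adjusted p under 0.05. The c4b and c6.2 probe sets and 2 of 3 f13a1b probe sets lie to the right of 0, and the intervals of the other 9 include 0.

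The wider list of complement and clotting genes held 122 symbols, of which 42 were measured, the 8 genes above among them. Of the other 34, 4 rose and 0 fell, beside the 5.05% of all genes that rose and 8.05% that changed: those 4 were clu, c4, anxa2a and serpine2. At an unadjusted p under 0.05, 6 were higher and 2 lower in limma, beside 12.7% of all genes in each direction. The median change of these 34 genes was -0.07, beside -0.04 over all genes.

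**Figure D3:**
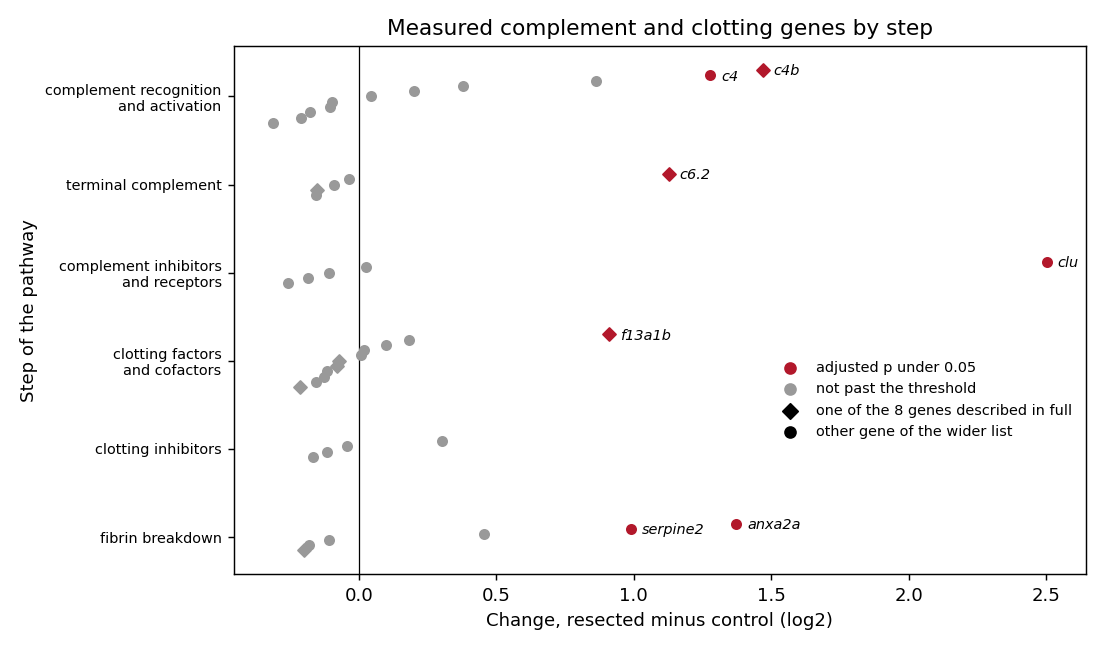
Change of the 42 measured complement and clotting genes, resected minus control in log2 units, by step of the pathway; diamonds are the 8 genes described in full and red marks an adjusted p under 0.05 in limma. The 7 genes past the threshold all lie to the right of 0, spread over 5 of the 6 steps.

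In the activation step, c4, a further zebrafish gene for a C4 protein, rose with c4b. It was at 7.81, 7.93, 7.74 and 8.02 in resected replicates 1 to 4, against 6.62, 6.81, 6.56 and 6.39 in control replicates 1 to 4, with no overlap between the groups. The change was 1.28 ± 0.11, or 2.43-fold (adjusted p = 7.96e-05, limma). Probe sets of related genes can bind each other's transcripts, so the copy measured by c4 and c4b is uncertain. The other 9 genes of this step did not pass. The C1q chain gene c1qc and the properdin gene cfp changed by 0.86 ± 0.32 and 0.38 ± 0.33 (adjusted p = 0.138 and 0.524, limma). The factor D gene cfd and the lectin pathway protease gene masp2 changed by -0.31 ± 0.09 and -0.21 ± 0.11 (adjusted p = 0.0615 and 0.262, limma). For cfd every resected pool lay below every control pool, with means of 9.84 in resected and 10.16 in control. The values of masp2 lay below the array medians in both groups.

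Of the other terminal components, 3 were measured and none passed, also at an unadjusted p under 0.05. The gene c7b, a C7 gene that is the next protein-coding gene to c6.2 on the GRCz12tu assembly, was at 5.91 ± 0.10 in resected and 5.998 ± 0.13 in control ventricles (SD, n = 4 each), a change of -0.09 ± 0.09 (adjusted p = 0.594, limma). The C8 chain genes c8b and c8g changed by -0.04 ± 0.10 and -0.15 ± 0.09 and were dim in both groups.

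Among complement inhibitors, clu, which encodes clusterin, a secreted chaperone that also binds the terminal complex, rose to 9.58 ± 0.38 in resected ventricles, against 7.08 ± 0.12 in control ventricles (SD, n = 4 each). This was a change of 2.50 ± 0.17 (adjusted p = 1.85e-05, limma). The factor I gene cfi, the vitronectin gene vtnb, the C1 inhibitor gene serping1 and the factor H-like gene cfhl4 did not pass, with changes of 0.02 ± 0.08, -0.11 ± 0.10, -0.19 ± 0.09 and -0.26 ± 0.09. The values of vtnb, serping1 and cfhl4 lay below the array medians in both groups, and the means of cfi, 5.76 in resected and 5.74 in control, just below them.

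None of the other 7 clotting factors and cofactors passed, also at an unadjusted p under 0.05. The factor V gene f5 changed by 0.02 ± 0.13, the factor VII-like gene f7l by -0.16 ± 0.09, the fibrinogen-like gene fgl2a by 0.10 ± 0.15 and the kininogen gene kng1 by 0.18 ± 0.10. None of 4 clotting inhibitors passed either: the antithrombin gene serpinc1 changed by -0.04 ± 0.08, the heparin cofactor gene serpind1 by -0.12 ± 0.09 and the protein C gene proca by -0.17 ± 0.09. The values of kng1, serpinc1, serpind1 and proca lay below the array medians in both groups, so a change under the array's background would not be seen. For tfpia, which encodes tissue factor pathway inhibitor, the 2 probe sets disagreed, at 0.30 ± 0.14 and -0.40 ± 0.15, and neither passed (adjusted p = 0.231 and 0.145, limma).

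In the step of fibrin breakdown, anxa2a and serpine2 rose. The annexin A2 gene anxa2a, whose mammalian protein gathers plasminogen and its activator on the cell surface, changed by 1.37 ± 0.13 (adjusted p = 0.000213, limma). The gene serpine2, whose mammalian protein, protease nexin 1, inhibits thrombin and plasminogen activators, changed by 0.99 ± 0.11 (adjusted p = 0.000765). The annexin partner gene s100a10b changed by 0.46 ± 0.12 and just missed the threshold (adjusted p = 0.0553). The urokinase gene plaua and the antiplasmin gene serpinf2a changed by -0.11 ± 0.07 and -0.18 ± 0.09, with values below the array medians in both groups.

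A paralog of f13a1b, f13a1a.1, was examined after its values were seen. The wider list held the symbol f13a1a, for which no probe set was named. Under its own symbol f13a1a.1 was not matched, so it is not in the counts of that list. It was at 7.42, 5.56, 6.53 and 6.54 in resected replicates 1 to 4, against 4.15, 3.89, 4.11 and 5.39 in control replicates 1 to 4. The groups did not overlap, but the spread within each was wide, with SDs of 0.76 in resected and 0.68 in control arrays (n = 4 each). The change was 2.13 ± 0.39, or 4.38-fold with a 95% interval of 2.39-fold to 8.02-fold (adjusted p = 0.0104, limma; 0.101 without moderation). Control replicate 2, the highest control for f13a1b, was the lowest for f13a1a.1.

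Markers of the cells that could carry these transcripts were measured in the same pools, which hold whole ventricles. In such pools, more cells of a type and more transcript per cell cannot be told apart. The labelled tissue was checked first: 6 of 10 cardiomyocyte markers were measured, of which 1 rose (the myosin heavy chain gene myh7, by 0.83 ± 0.11, adjusted p = 0.00182, limma) and 0 fell. Their mean level was 13.02 to 13.20 in resected and 13.01 to 13.10 in control arrays.

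Of 10 phagocyte markers, 7 were measured. Of these, 3 rose (spi1b, ncf1 and csf1ra) and 0 fell, beside 5.05% of all genes that rose. The defining marker marco did not pass, with a change of 0.56 ± 0.40 (adjusted p = 0.433, limma), nor did cd74a, coro1a and lcp1. The mean of the 7 markers was 8.29, 9.02, 8.60 and 8.54 in resected replicates 1 to 4, against 7.54, 8.53, 7.56 and 7.68 in control replicates 1 to 4. Control replicate 2 stood apart from the other controls here, and it was also the highest control for c4b, c6.2 and both f13a1b probe sets that rose. The same array was the highest control for the erythrocyte and neutrophil marker means. The order of the resected pools differed: c4b and c6.2 were highest in replicate 4 and lowest in replicate 3. Both f13a1b probe sets were lowest in replicate 1, as the phagocyte mean was. The brightest was highest in replicate 3 and that with the suffix _s_at in replicate 2. No probe set was named for the other defining markers, mpeg1.1 and mfap4. The part of phagocytes in the increases of c4b, c6.2 and f13a1b was not tested.

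Control replicate 2 was the highest control for c4b, c6.2 and f13a1b, so leaving it out enlarges their changes by construction. Without control replicate 2 the changes were 1.68 for c4b, 1.24 for c6.2 and 1.04 for f13a1b, and the same 3 of 8 genes rose (adjusted p = 0.000350, 0.000709 and 0.00362, limma). In the wider list the count without that array was 10 higher and 1 lower of 42, against 7 and 0 with it. Over all genes the share called also grew without it, to 7.37% higher and 4.95% lower. The C1q chain gene c1qc was at 9.98, 10.75, 10.29 and 10.16 in resected pools, against 8.78, 10.51, 9.10 and 9.35 in control pools. Its only control value within the resected range was that of replicate 2. Without it c1qc changed by 1.22 and the properdin gene cfp by 0.79 (adjusted p = 0.00371 and 0.00373), and s100a10b by 0.55 and cfd by -0.35 also passed (0.0141 and 0.0463). Here too the array left out was the highest control for c1qc, cfp and s100a10b and the lowest for cfd.

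**Figure D4:**
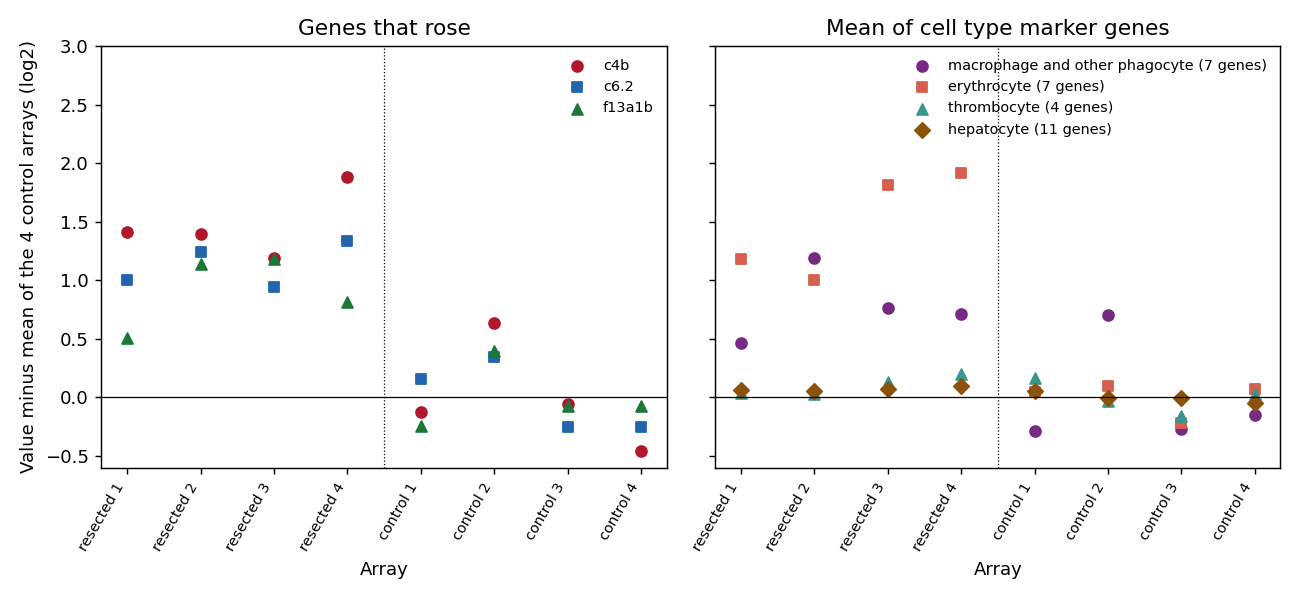
Left, c4b, c6.2 and f13a1b in each array, and right, the mean of the measured marker genes of 4 cell types, all as log2 value minus the mean of the 4 control arrays; resected arrays are left of the dotted line and control arrays right of it. Control replicate 2 is the highest control for the 3 genes, for the phagocyte markers and, by a small margin, for the erythrocyte markers. The erythrocyte markers are higher in all 4 resected arrays.

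Of 7 defining hepatocyte markers, 5 were measured (fabp10a, ambp, serpina1l, fetub and hpda), and 0 passed in either direction in limma. Before adjustment 3 were lower and 0 higher at p under 0.05, beside 12.7% of all genes in each direction. All 5 changes had a negative sign, as did those of 5171 of all 8793 genes. The changes were -0.46 ± 0.12 for the liver fatty acid binding protein gene fabp10a, -0.33 ± 0.10 for serpina1l, -0.28 ± 0.13 for hpda, -0.22 ± 0.09 for fetub and -0.21 ± 0.11 for ambp (adjusted p = 0.0538, 0.0671, 0.231, 0.192 and 0.304, limma). The means of fabp10a and hpda lay below the array medians in both groups. Over the 11 measured genes of the whole liver list, with fibrinogen and plasminogen left out, 2 rose (tfa and hp) and 1 fell (hpxb). Their changes were 2.15 ± 0.16, 0.96 ± 0.20 and -0.43 ± 0.09, and hpxb lay below the array medians in both groups. The mean of the 11 was 5.88 to 5.92 in resected and 5.77 to 5.87 in control arrays, though their median change was -0.22.

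Of 4 defining thrombocyte markers, 2 were measured and 0 passed in limma, with 1 higher at an unadjusted p under 0.05. The integrin gene itga2b changed by 0.04 ± 0.17 and the platelet glycoprotein gene gp1bb by 0.24 ± 0.10 (adjusted p = 0.916 and 0.196, limma). The values of itga2b and gp1bb lay below the array medians in both groups, so a change under the array's background would not be seen. The mean of the 4 measured thrombocyte markers other than f13a1b was 4.69 to 4.86 in resected and 4.50 to 4.82 in control arrays, with overlapping ranges.

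Of 7 measured erythrocyte markers 6 rose, beside 5.05% of all genes. The mean of these markers was 9.09 to 10.01 in resected arrays, against 7.87 to 8.19 in control arrays. Of 7 measured fibroblast and epicardial markers 5 rose (postnb, fn1a, col1a2, col1a1a and aldh1a2), with a mean of 9.003 to 9.14 in resected arrays, against 7.07 to 7.38 in control arrays. The epicardial genes tbx18 and wt1a did not pass, with changes of 0.21 ± 0.09 and -0.14 ± 0.09 (adjusted p = 0.213 and 0.359, limma). Of 4 measured neutrophil markers 1 rose, mmp9, and the mean was 7.15 to 7.56 in resected and 6.16 to 7.49 in control arrays. The defining neutrophil markers mpx and lyz did not pass, with changes of -0.06 ± 0.09 and 0.86 ± 0.49 (adjusted p = 0.726 and 0.328, limma). The part of these cell types in the increases of the complement and clotting genes was not tested.

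The manufacturer's 3' and 5' control probe sets were compared as a sign of RNA quality. For actin, by probe sets named for acta1, the 3' minus 5' value was -1.74 to -1.46 in resected arrays, against -2.30 to -1.98 in control arrays (exact two-sided permutation p = 0.0286, 0.0571 adjusted over 2 measures). The 5' actin probe set was thus the brighter in every array. For GAPDH the 3' minus 5' value was 0.80 to 1.05 in resected and 0.77 to 1.07 in control arrays (p = 0.771, exact permutation test). The part of RNA quality in the changes was not tested.

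The genes whose 8 values, each less its own mean, lay nearest to those of each riser were also identified, by root mean square difference in log2 units over the 8 arrays. The search left out the members, genes with a clone or locus name, and probe sets with the suffix _x_at. For c4b these were rrm2l (0.19), c4 (0.23) and selenon (0.25), so that c4 was the second nearest of the genes searched. For c6.2 they were rrbp1a (0.11), the membrane protease gene mmp14b (0.13) and the ribonucleotide reductase subunit gene rrm1 (0.13). For f13a1b they were pclaf (0.13), ms4a17a.11 (0.13) and pdcd6 (0.14). All 9 are themselves higher in resected ventricles, with changes of 0.83 (pclaf) to 1.41 (rrm2l). This follows from how they were picked, since each riser is itself higher in resected ventricles.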

How the data were processed

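Total RNA from pooled ventricles was hybridised to an Affymetrix zebrafish array. The deposited values are log2 expression per probe set. Per the submitters' processing notes the authors used affy and RMA (background correction, quantile normalization and probe summarisation), with no versions given. RMA draws arrays to a common distribution, so changes are relative to the bulk of probe sets.

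The 115 control probe sets were left out, and 0 sample columns were unused. Of the remaining probe sets, 10795 had 1 symbol, 135 several and 4572 none. Symbols were updated by gene ID through the GRCz12tu gene table, which matched 10711 of the 10795. Its coordinates are not given, because the array's build is not named. A gene is represented by its brightest probe set, taken over all 8 arrays. The 2 groups were compared by a two-sided test in limma 3.58.1 (R 4.3.3; lmFit and eBayes, no replicate term), adjusted over 15502 probe sets. The number of arrays limits the precision.

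From the wider list, genes past the threshold are named (up to 10 per direction), with up to 4 others per step by highest mean. For each member that rose, 3 named genes nearest in pattern are given. Members, lists and tests were chosen with earlier results of these data known. The fit was tested on simulated data. The alternatives were a replicate block, other variance priors, array weights, normalizations, a filter on dim probe sets, no moderation, probe set means and leaving out each array. No sequences of the probe sets or proteins were analysed here.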

Additional observations from a re-analysis of the deposited data

Results flagged for a closer look

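Among 78 groups of 4 values, 6 held a value far from the others of its group, where chance gives about 1 in 20. The groups covered all 13 probe sets and the brightest probe set of each named gene of the wider list. The gene f13a1a.1, the dimmer tfpia probe set and cell type markers outside these lists were not screened. For the dim f13a1b probe set, control replicate 4 was at 2.97, against 2.74 to 2.78 in the other controls. For cfp, control replicate 2 was at 9.94, against 8.18 to 8.42. For anxa2a, control replicate 3 was at 10.76, against 10.44 to 10.46, and for serpine2, control replicate 1 was at 7.72, against 7.97 to 8.02. For cfi, resected replicate 4 was at 5.64, against 5.79 to 5.81. For c8b, control replicate 3 was at 3.21, against 3.43 to 3.47.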

How the results depend on the processing

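The increase of c6.2 passed the threshold in all 17 alternatives (adjusted p at most 0.0439). Those of c4b and f13a1b passed in 16 of 17 each, and not without moderation of the variance (adjusted p = 0.0609 and 0.0934). In that setting 1 of the 8 genes rose, and 3 rose in all other alternatives. The share of all genes called was computed only for the main fit and without control replicate 2. Counts under the other settings are therefore not read as particular to these genes. The change of f13a1b was 0.64 as the mean of its probe sets. The f13a1a.1 call, examined after seeing the data, also ended without moderation (0.101). Without control replicate 2 the wider list had 11 calls, against 7; over arrays left out it had 7 to 11. Deviations of same-numbered arrays had a correlation of -0.16 to 0.14, against -0.22 to 0.30 for other numbers. These correlations do not settle whether the replicate numbers pair the arrays. With a replicate block the wider list had 8 calls, c1qc being called (adjusted p = 0.0227), and the 3 of 8 genes were called too. With same-numbered arrays paired, the differences of c6.2 and c9 (1.28) and of f13a1b and fibrinogen (1.03, not read because fibrinogen may lie under background) had an exact p = 0.125, the smallest that 4 pairs allow. Over arrays left out these were 1.13 to 1.45 and 0.91 to 1.22 (adjusted p = 0.0286 to 0.0571, exact permutation test), the GAPDH difference -0.079 to 0.028 and that of actin 0.49 to 0.60. The direction turned for genes that were not called: f5 with array weights (-0.019) and tfpia as the mean of its probe sets (-0.046). It also turned with an array left out for f5 (-0.071 to 0.15), fgg (-0.15 to 0.026), the dimmer plg probe set (-0.039 to 0.082), fgl2a (-0.032 to 0.19), c8b (-0.098 to 0.017) and serpinc1 (-0.069 to 0.011). The gene cfd passed with further quantile normalization (-0.33, adjusted p = 0.0403), and s100a10b with an intensity trend or array weights (0.0463 and 0.0457). The cause of these shifts was not tested. The filter on dim probe sets left 6 of the 8 genes.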
